A study of Xenopus laevis with 16 samples.

Results

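This comparison set Xenopus laevis animal caps that carried Ptf1a against animal caps that carried Neurog2 after 6 h of dexamethasone. It rested on 4 of the 16 libraries of the study, 2 of each kind, and was chosen by the injected mRNA and the time on the labels. Animal caps are pieces of blastula ectoderm that form epidermis when left alone. In the Ptf1a caps both cells of 2-cell embryos had received 20 pg of mRNA for ptf1a-GR. In the Neurog2 caps they had received the same mass of mRNA for GR-neurog2. The GR part is the hormone-binding domain of the glucocorticoid receptor, which keeps a fused protein inactive until dexamethasone is added. Caps of a Ptf1a mutant with the substitutions W224A and W242A, named the mutant below, and control caps named CC were sampled at the same time. All of them were kept in dexamethasone, but what the CC embryos were injected with, if anything, is unclear from the labels. The same groups were also taken after 25 h. The mRNA went into both cells, and no cell type was picked out within the caps.

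Ptf1a and Neurog2 are basic helix-loop-helix (bHLH) transcription factors, which bind DNA as dimers with E proteins. Ptf1a also binds Rbpj, the DNA-binding protein of the Notch pathway, and in mouse spinal cord and retina it directs cells to inhibitory in place of excitatory fates. Neurog2, a neurogenin, starts neurogenesis through Delta ligands and NeuroD-type bHLH genes and is known for sensory and excitatory neurons. In Notch signalling a Delta or Jagged ligand on one cell activates Notch on its neighbour, and cleaved Notch together with Rbpj turns on Hes repressor genes.

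Few genes differed between the caps at this time in the main fit, which did not pair libraries by replicate number. In that fit nearly all that did were higher with Ptf1a. A fit of the 8 libraries of 6 h with the replicate number as a block called 188 higher and 68 lower. Both statements thus depend on the fit and do not hold in every one. In the main fit 38 of 30384 genes tested were higher in the Ptf1a caps (0.125% of genes). Another 4 were lower (0.0132%), 0.138% in either direction. Those higher included both copies of prdm13, a known Ptf1a target, the repressor genes hes8 and hes3.3, and the mesenchymal factor genes snai2.L, twist1.L and foxc1.L. Those lower were neurog2.L itself, hbg1.L, hes2.L and arhgef3.2.S. The test was edgeR's quasi-likelihood test with Benjamini-Hochberg adjustment over all genes tested, and a gene is called here when its adjusted p is below 0.05. All adjusted p-values below come from it, and levels are counts scaled to library size with TMM factors (CPM), which compare a gene between libraries and not genes of different length. In all 843 genes had an unadjusted p below 0.05. The 4 libraries did not overlap for any of the 42 called genes, against 24.8% of all genes tested. The absolute log2 fold change of the called genes lay between 1.19 and 9.76, with a median of 3.32. The largest values include fits to 0 counts in both Neurog2 libraries, for 3 genes, which are no bounds; the median is the same with these genes at their bound.

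The 4 libraries were unequal in depth. Their totals were 228346016 and 105024565 counts in the Ptf1a caps, against 55455110 and 31683494 counts in the Neurog2 caps. The mutant libraries held 86309624 and 64690930 counts and the CC libraries 49151603 and 31436437. With all libraries thinned to the smallest total, 35 genes were higher and 3 lower in the Ptf1a caps. Whether the 2 libraries of a group came from different embryo batches is not on the labels, and the p-values therefore measure a spread between samples that may be technical. Without the first Ptf1a library 37 genes were higher and 2 lower. Without the second Ptf1a library, or without either Neurog2 library, 7 were higher and 2 lower. Each such fit takes the lone library left to vary like the other groups. Called without each of the 4 libraries in turn were 8 genes: ptf1a.L, neurog2.L, post.L, post.S, rab15.L, hbg1.L and the locus identifiers Xelaev18007001m.g and Xelaev18035340m.g. The other 34 lost the call in at least 1 of these fits, and none of the 42 changed sign. A fit of the 8 libraries of 6 h alone called 3 genes higher and 1 lower, and a fit of the 4 libraries alone called 0 higher and 1 lower. DESeq2 called 121 higher and 26 lower. Libraries of 6 h with the same replicate number deviated together across genes, with correlations of 0.617 to 0.697 between groups. The main fit leaves this shared part in its spread. With the replicate number as a block, 70 genes were higher and 6 lower over the 16 libraries. A block within each time gave 154 and 20, and a block in the 8 libraries of 6 h gave 188 and 68. The count of calls and the share that were higher thus depend on this choice.

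**Figure D1:**
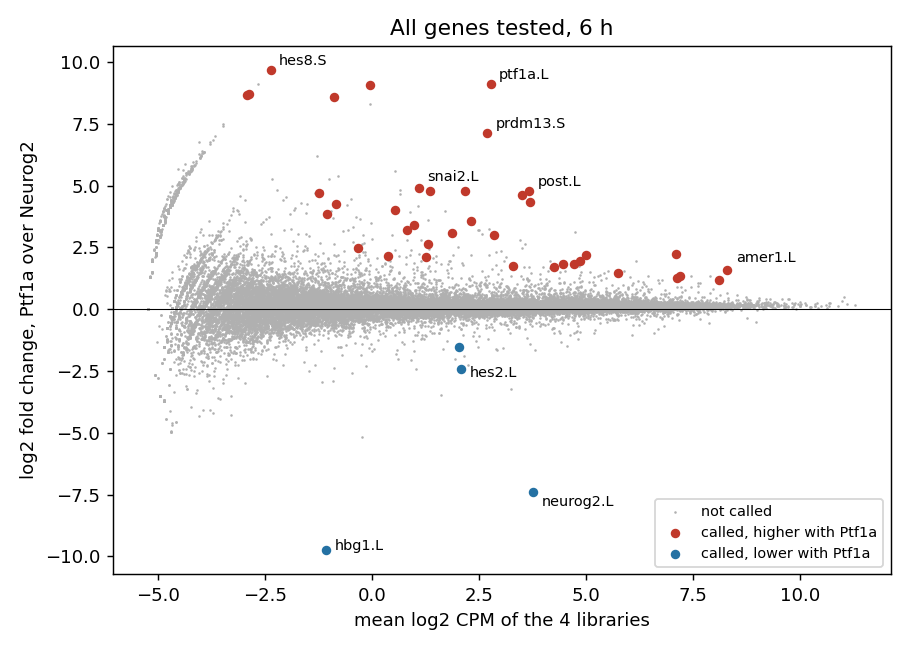
Log2 fold change of the Ptf1a caps over the Neurog2 caps at 6 h against the mean log2 CPM of the 4 libraries, 1 point for each of the 30384 genes tested. The 38 genes called higher (red) and the 4 called lower (blue) are marked, and the arcs of grey points at the left are genes with few or no counts in the Neurog2 libraries.

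The injected genes were checked first. The gene ptf1a.L (build 9.1, chromosome 6L, 23341343 to 23343013) stood at 184 and 181 CPM in the Ptf1a caps, against 0.510 and 0.096 CPM in the Neurog2 caps. It stood at 152 and 147 CPM in the mutant caps and at 0.161 and 0.187 CPM in the CC caps. Both Ptf1a constructs stood at similar high levels, and the Neurog2 and CC caps were near 0. Its log2 fold change between Ptf1a and Neurog2 caps was 9.11 ± 0.673 (SE), with an adjusted p of 0.000128. The gene neurog2.L (chromosome 1L, 61907027 to 61909892) had 1.10 and 0.992 CPM in the Ptf1a caps, against 158 and 192 CPM in the Neurog2 caps. Its log2 fold change was -7.38 ± 0.514 (adjusted p = 0.000128). Injected and endogenous transcripts of these genes are counted together. The mutant and CC caps had 0.339 to 0.472 and 0.257 to 0.373 CPM of neurog2.L, below both Ptf1a libraries, but the difference of Ptf1a from CC (1.75 ± 0.474) was not called, with an adjusted p of 0.169. No S copy of ptf1a was measured, and the S copy of neurog2 had 0.86 and 1.12 CPM in the Ptf1a caps, against 0.42 and 0.864 CPM in the Neurog2 caps, with a log2 fold change of 0.63 ± 1.22 that was not called. L and S are the gene copies (homeologs) on the subgenomes of Xenopus laevis, and reads of near-identical copies may be shared between them.

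The partner gene rbpj was measured at like levels. The copy rbpj.L had 18.4 and 18.4 CPM in the Ptf1a caps, against 16.04 and 17.7 CPM in the Neurog2 caps, and rbpj.S had 10.5 and 8.15 CPM against 7.83 and 8.55 CPM. Neither was called, at 0.13 ± 0.258 and 0.19 ± 0.228. Of the 15 measured copies of the list of injected genes and bHLH partners, ptf1a.L was called higher and neurog2.L lower. This is 13.3%, against 0.138% of all genes tested, and both are injected genes. The list's median log2 fold change was 0.26, against 0.12 over all genes tested. Id proteins bind E proteins and so inhibit bHLH factors. The id2.L gene, described after its values were seen, had 389 and 397 CPM in the Ptf1a caps, against 202 and 107 CPM in the Neurog2 caps. Its log2 fold change of 1.35 ± 0.294 was not called in edgeR's test (adjusted p = 0.182), while DESeq2 called it higher.

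Prdm13 is a zinc finger protein of the PR domain family that acts downstream of Ptf1a and represses excitatory fate genes in mouse spinal cord. The copy prdm13.S (chromosome 5S, 65016308 to 65022315) had 57.3 and 95.5 CPM in the Ptf1a caps, against 0.60 and 0.48 CPM in the Neurog2 caps. It had 1.32 and 1.89 CPM in the mutant caps and 0.032 and 0.047 CPM in the CC caps. The copy prdm13.L (chromosome 5L, 83447778 to 83455258) had 13.9 and 26.6 CPM in the Ptf1a caps, against 0.060 and 0 CPM in the Neurog2 caps. Both copies were high in both Ptf1a libraries and below 2 CPM in every other library of 6 h. The log2 fold change of prdm13.S was 7.13 ± 1.08 (adjusted p = 0.0269) and that of prdm13.L was 9.09 ± 1.40 (adjusted p = 0.0379). Against the CC caps, comparisons that share these libraries, 0.885% of genes were called higher with Ptf1a and 0.247% with Neurog2. There prdm13.S gave 10.90 ± 1.36 in the Ptf1a caps (adjusted p = 0.00181) and 3.77 ± 1.36 in the Neurog2 caps (adjusted p = 0.902). Both calls held without the first Ptf1a library and were lost without any other of the 4, with an adjusted p of up to 0.40 for prdm13.S and 0.408 for prdm13.L without the second Neurog2 library.

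These were the 2 called copies of 48 on the list of the Ptf1a programme and inhibitory fate factors (4.17%, against 0.138% of all genes tested). The list's median log2 fold change was 0.09, against 0.12 over all genes. Of the 48 copies 15 had both Ptf1a libraries above both Neurog2 libraries and 7 had both below. Over all 30384 genes tested 6306 were above and 1220 below. The copy lhx1.S, a LIM homeodomain gene of inhibitory interneurons, had 9.62 and 7.56 CPM in the Ptf1a caps, against 10.4 and 8.84 CPM in the Neurog2 caps. The gata3.L gene, a zinc finger factor of inhibitory interneurons, had 8.40 and 8.41 CPM with Ptf1a, against 2.64 and 1.01 CPM with Neurog2. Its libraries did not overlap, and its fold change of 2.18 ± 0.511 was not called in edgeR's test (adjusted p = 0.256). DESeq2 called it higher. These members were picked after their values were seen. Of 21 measured copies of inhibitory neurotransmitter genes, 0 were called in edgeR's test, and the gene named from them by the rule, the GABA-synthesising enzyme gene gad1.2.L, had 616 and 413 CPM in the Ptf1a caps, against 620 and 366 CPM in the Neurog2 caps. It stood at 509 and 347 CPM in the CC caps.

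**Figure D2:**
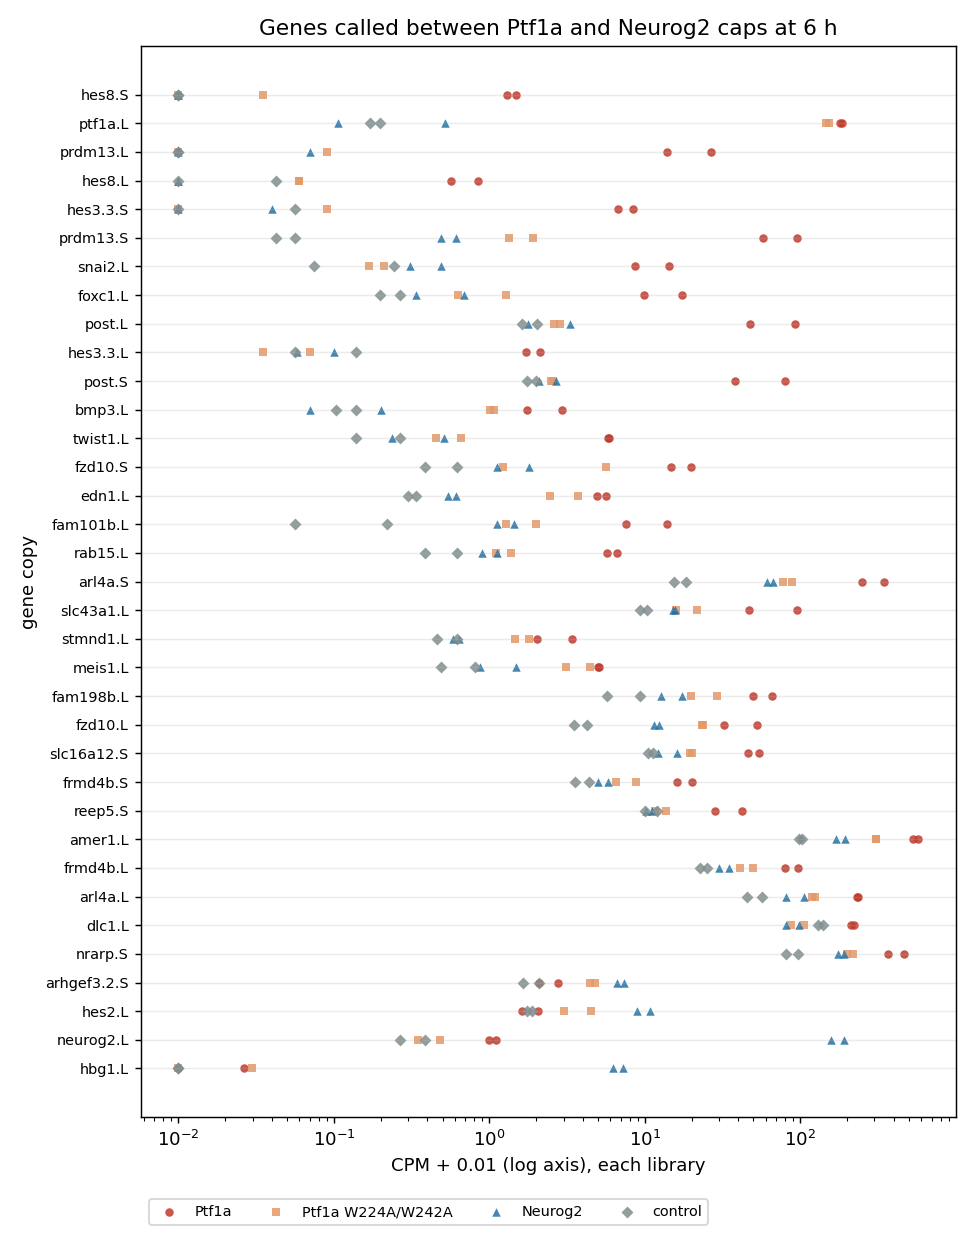
CPM plus 0.01 on a log axis for the 35 called genes that have a symbol, with 1 point for each library of 6 h: Ptf1a (circles), mutant (squares), Neurog2 (triangles) and CC caps (diamonds). For the 31 genes called higher both circles lie right of both triangles, and for the 4 called lower they lie left of them.

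Hes and Hey proteins are bHLH repressors, many of them targets of Notch. The list of these genes holds 27 measured copies, which are not all the hes copies measured. Of the 27, 4 were called higher with Ptf1a and 1 lower, 18.5%, against 0.138% of all genes tested. The 4 are both copies of the neighbouring genes hes3.3 and hes8. This list was written with earlier results of these data known, so its share is no independent support. In the fit of the 8 libraries of 6 h without a block, 0 copies of the list were called. The fit of the 4 libraries compared also called 0. With the replicate number as a block in the 8 libraries of 6 h, both copies of hes3.3 and hes8 and the copy hes2.L stayed called. The list's median was 0.72, against 0.12 over all genes. The copy hes3.3.S (chromosome 7S, 67821097 to 67823181) had 8.36 and 6.73 CPM in the Ptf1a caps, against 0.030 and 0 CPM in the Neurog2 caps. These rest on 2928 counts in the Ptf1a libraries and 2 in the Neurog2 libraries. The ratio is 424 after scaling to library size with TMM factors, with an exact 95% interval of 117 to 3502. That interval covers counting error only and takes each count as independent. Many small counts in these libraries are even numbers, so counts may not be independent and the interval may be too narrow. The copy hes3.3.L (chromosome 7L, 93679969 to 93681779) had 2.10 and 1.72 CPM, against 0.090 and 0.048 CPM, and a log2 fold change of 4.71 ± 0.775 (adjusted p = 0.044). In the mutant and CC caps hes3.3.S lay between 0 and 0.080 CPM and hes3.3.L between 0.025 and 0.129 CPM.

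The copies hes8.S (chromosome 7S, 67840128 to 67841983) and hes8.L (chromosome 7L, 93692816 to 93694709) had no count in either Neurog2 library. In the Ptf1a caps hes8.S had 1.47 and 1.29 CPM and hes8.L 0.84 and 0.553 CPM. Set against a floor of 3 counts over the 2 Neurog2 libraries, hes8.S was at least 50.9-fold higher and hes8.L at least 26.9-fold higher. Their adjusted p-values were 0.0302 and 0.0379, and that of hes3.3.S was 0.034. All 4 calls were lost without any 1 of the 4 libraries, with an adjusted p of up to 0.294 for hes8.S, 0.346 for hes8.L, 0.431 for hes3.3.S and 0.568 for hes3.3.L.

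The pair hes3.3 and hes8 lies side by side on both subgenomes, 11.0 kb apart on chromosome 7L and 16.9 kb apart on 7S. Within 100 kb on each side of hes8 the annotation of build 9.1 holds further hes genes, and 14 hes copies were measured there, 8 on 7L and 6 on 7S. This neighbourhood was looked at after the values were seen. The 10 copies other than hes3.3 and hes8 were not called in edgeR's test, while DESeq2 called hes5.3.S and hes3.1.S higher. In 7 of these 10 both Ptf1a libraries were above both Neurog2 libraries, 4 of 4 on 7S among them, where 20.8% of all genes tested show this. Among them hes5.3.S had 2.84 and 2.67 CPM in the Ptf1a caps, against 0.285 and 0.120 CPM in the Neurog2 caps, with a fold change of 3.73 ± 0.907 (adjusted p = 0.306). The hes9-1.S copy had 4.20 and 4.95 CPM, against 0.690 and 0.624 CPM, and hes3.1.S had 47.1 and 40.0 CPM, against 14.7 and 9.82 CPM. These examples all lie on 7S. On 7L the libraries overlapped for hes9-1.L (0.44 ± 0.969), hes3.1.L (0.20 ± 0.383) and hes9-2.L (-0.19 ± 0.857). Of the 8 hes copies on 7L, 5 had both Ptf1a libraries above, hes3.3.L and hes8.L among them. The neighbours nol9.L, zbtb48.L and zbtb48.S, which are no hes genes, gave 0.11 ± 0.158, 0.14 ± 0.201 and 0.27 ± 0.211. A locus without a symbol between hes8.S and hes9-1.S gave 3.62 ± 0.672 and was not called (adjusted p = 0.0754).

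The copy hes2.L (chromosome 7L, 93192583 to 93194631) went the other way. It had 1.61 and 2.05 CPM in the Ptf1a caps, against 10.8 and 8.84 CPM in the Neurog2 caps, 4.50 and 3.01 CPM in the mutant caps and 1.74 and 1.87 CPM in the CC caps. The Ptf1a and CC libraries overlapped, and both Neurog2 libraries stood above all others of 6 h. Its log2 fold change was -2.43 ± 0.391 (adjusted p = 0.0379), and the call was lost without any 1 of the 4 libraries, with an adjusted p of up to 0.368. In the Neurog2 caps it was 2.45 ± 0.394 higher than in the CC caps (adjusted p = 0.0232), and in the Ptf1a caps the value against CC caps was 0.02 ± 0.375.

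Of 41 measured copies of Notch ligands, receptors and modifiers, 1 was called (2.44%, against 0.138% of all genes tested). This was nrarp.S (chromosome 8S, 27174526 to 27178377), a Notch target whose ankyrin repeat product damps the pathway. It had 369 and 465 CPM in the Ptf1a caps, against 193 and 174 CPM in the Neurog2 caps, and 96.0 and 80.6 CPM in the CC caps. The fold change was 1.19 ± 0.20 (adjusted p = 0.0494), close to the threshold, and the call was lost without any 1 of the 4 libraries, with an adjusted p of up to 0.568. Its other copy nrarp.L was at 1.29 ± 0.404 and not called (adjusted p = 0.808). The list's median was 0.10, against 0.12 over all genes.

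The ligand genes on this list were described after their values were seen, and none was called. The Delta gene dll1.S had 36.7 and 38.4 CPM in the Ptf1a caps, against 47.8 and 59.3 CPM in the Neurog2 caps and 4.11 and 1.54 CPM in the CC caps. It was called against CC in both, at 3.72 ± 0.409 with Ptf1a (adjusted p = 0.000736) and 4.23 ± 0.418 with Neurog2 (adjusted p = 0.000941). These comparisons share the CC libraries. Both copies of another Delta gene, dlc, stood below in both Ptf1a libraries against both Neurog2 libraries, uncalled. The copy dlc.L had 1.497 and 0.439 CPM, against 6.57 and 3.79 CPM, with a fold change of -2.41 ± 0.829, and dlc.S gave -2.30 ± 0.811. The Jagged gene jag1.L stood the other way, at 72.2 and 53.3 CPM with Ptf1a, against 29.3 and 20.2 CPM with Neurog2 (1.34 ± 0.34, adjusted p = 0.37).

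The proneural bHLH list had 0 of 26 copies called by edgeR and the lowest median of the 22 lists, -0.493. DESeq2 called 1 of its copies, olig3.S, lower. Of the 26 copies 11 had both Ptf1a libraries below both Neurog2 libraries and 7 had both above. Over all 30384 genes tested 1220 were below and 6306 above. The neurod1.L copy, a NeuroD-type factor gene, had 0.303 and 0.341 CPM in the Ptf1a caps, against 0.660 and 1.68 CPM in the Neurog2 caps, and its fold change of -1.84 ± 0.801 was not called. The neurogenin gene neurog1.L lay under 0.35 CPM in all 4 libraries. Both genes were picked after their values were seen. The early neuronal factors had the highest median among the 15 lists with no called copy, 0.479 over 41 copies. The zinc finger gene myt1.L had 265 and 320 CPM in the Ptf1a caps, against 155 and 126 CPM in the Neurog2 caps and 7.86 and 7.60 CPM in the CC caps. Its difference between Ptf1a and Neurog2 caps was 1.06 ± 0.498 and was not called. The POU domain gene pou3f1.L, described after its values were seen, had 15.2 and 20.1 CPM with Ptf1a, against 2.49 and 1.25 CPM with Neurog2 and 0.096 and 0 CPM in the CC caps. Its fold change of 3.23 ± 0.567 missed the threshold with an adjusted p of 0.0574. With the replicate number as a block over all 16 libraries it was called (adjusted p = 0.0306), and DESeq2 called it too. In the 8 libraries of 6 h without a block it was not.

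Among 61 neural plate copies and 65 copies of excitatory and sensory fate factors 0 were called by edgeR. DESeq2 called prdm14.L of the excitatory and sensory list lower. The anterior neural plate gene six3.L, described after its values were seen, had 4.25 and 12.4 CPM in the Ptf1a caps, against 0.21 and 0.456 CPM in the Neurog2 caps. It came nearest to a call among the neural plate genes at 4.66 ± 0.794 (adjusted p = 0.0505). The same block over all 16 libraries called it (adjusted p = 0.0221), as did DESeq2. The 8 libraries of 6 h without a block did not. The list medians were 0.20 for neural plate and 0.31 for excitatory and sensory factors.

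Genes of mesenchyme and neural crest were next. Snai2 is a zinc finger repressor of the transition of epithelial to migratory cells in the neural crest. Its copy snai2.L (chromosome 6L, 114103636 to 114107900) had 8.67 and 14.3 CPM in the Ptf1a caps, against 0.30 and 0.48 CPM in the Neurog2 caps, 0.159 and 0.199 CPM in the mutant caps and 0.064 and 0.233 CPM in the CC caps. Its log2 fold change was 4.90 ± 0.503 (adjusted p = 0.00165). The call was lost without the first Neurog2 library, with an adjusted p of 0.0612. The bHLH gene twist1.L (chromosome 6L, 37015487 to 37018488) had 5.78 and 5.89 CPM, against 0.225 and 0.504 CPM, with a fold change of 4.02 ± 0.645 (adjusted p = 0.0379). The forkhead gene foxc1.L (chromosome 6L, 84706045 to 84708188) had 9.93 and 17.2 CPM, against 0.330 and 0.672 CPM, with a fold change of 4.77 ± 0.658 (adjusted p = 0.0187). Without 1 Neurog2 library the adjusted p was up to 0.343 for twist1.L, whose call any 1 of the 4 libraries ended, and 0.21 for foxc1.L, whose call held without the first Ptf1a library only.

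For these genes the L copy stood apart from the S copy. The copies snai2.S and twist1.S lay under 0.15 CPM in all 4 libraries, with fold changes of -0.64 ± 0.426 and -0.29 ± 1.16, and foxc1.S had 2.29 and 2.13 CPM in the Ptf1a caps, against 1.01 and 1.51 CPM in the Neurog2 caps. Of the neural crest list 2 of 49 copies were called (4.08%, median 0.16) and of the mesoderm list 2 of 53 (3.77%, median 0.49), with twist1.L on both. The share over all genes tested was 0.138%. Of the 49 neural crest copies 15 had both Ptf1a libraries above both Neurog2 libraries and 2 had both below. The neural crest gene foxd3.L averaged 0.338 CPM with Ptf1a against 0.333 CPM with Neurog2, and sox10.L averaged 0.0323 CPM with Ptf1a against 0.030 CPM with Neurog2. Both members lie outside the rule for naming genes, near 0 CPM, and do not stand for the list. The mesoderm list summed to 105 and 100.6 CPM with Ptf1a, against 71.2 and 104 CPM with Neurog2 and 140 and 131 CPM in the CC caps. Of its 53 copies 22 had both Ptf1a libraries above both Neurog2 libraries and 3 had both below. Over all 30384 genes tested 6306 were above and 1220 below. Between 4 and 14 of the 53 copies were at 0 in a Ptf1a or Neurog2 library. The members ckm.S, tnni2.S, msgn1.L and msgn1.S were at 0 in the Ptf1a and the Neurog2 libraries. The part of other cells in these genes was not tested, and in whole caps fewer expressing cells and less RNA per cell cannot be told apart.

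**Figure D3:**
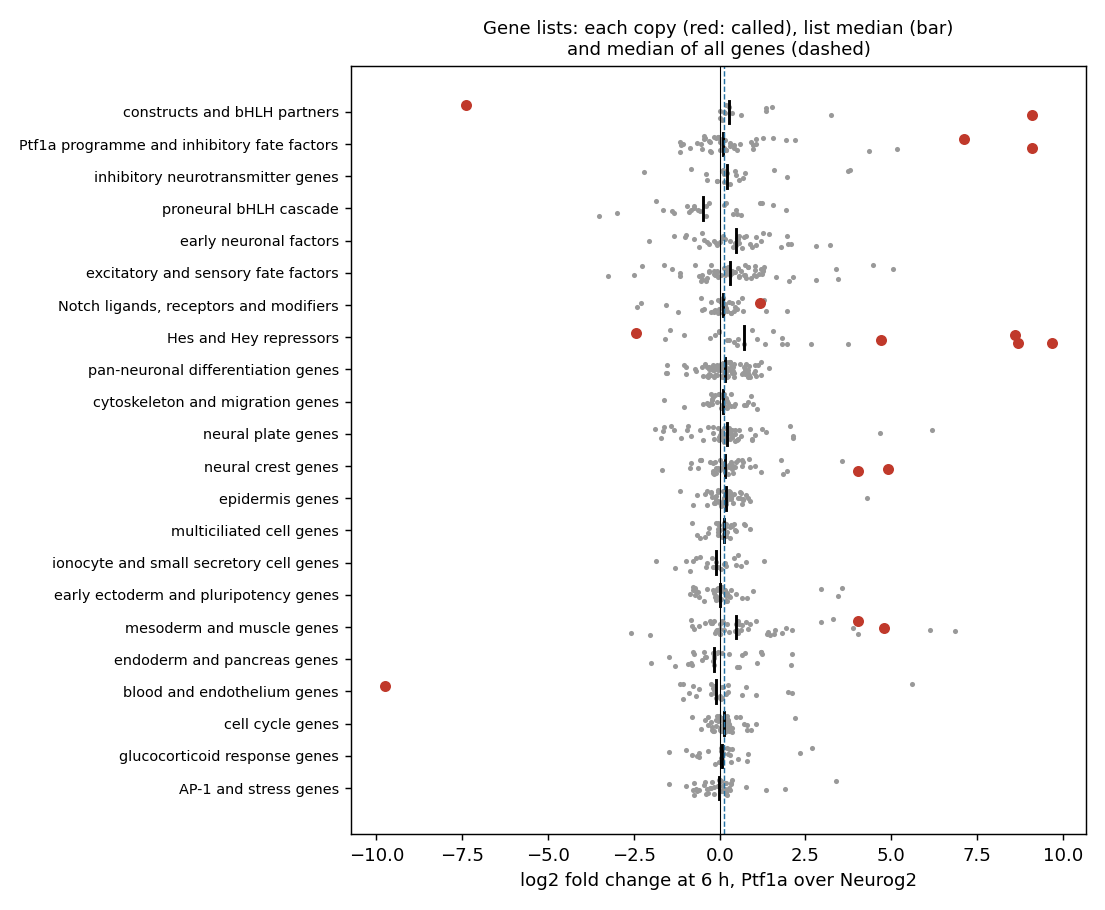
Log2 fold change of Ptf1a over Neurog2 caps at 6 h for every measured copy of the 22 gene lists, with called copies in red, list medians as bars and the median of all genes, 0.12, dashed. Called copies stand in 7 lists, and 5 of them are Hes and Hey repressors.

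Other called genes code for signals and their receptors. Endothelin 1 is a secreted peptide, and edn1.L had 4.93 and 5.63 CPM in the Ptf1a caps, against 0.60 and 0.528 CPM in the Neurog2 caps (3.22 ± 0.542, adjusted p = 0.0492). Bmp3, a ligand of the TGF-beta family that opposes other BMPs, gave 1.73 and 2.91 CPM of bmp3.L, against 0.060 and 0.192 CPM (4.25 ± 0.704, adjusted p = 0.0459). In the mutant caps edn1.L lay at 3.70 and 2.45 CPM and bmp3.L at 1.07 and 0.994 CPM, above every Neurog2 library. The Wnt receptor gene fzd10 was called in both copies, at 3.55 ± 0.602 for fzd10.S and 1.84 ± 0.272 for fzd10.L. The amer1.L gene, whose product binds APC and acts in Wnt signalling, was called too. It had 530 and 576 CPM with Ptf1a, against 169 and 194 CPM with Neurog2 (1.61 ± 0.227, adjusted p = 0.019). Without single libraries of the 4 the adjusted p of these 5 copies reached 0.267 to 0.575. The calls of edn1.L, bmp3.L and fzd10.S were lost without any 1, and those of fzd10.L and amer1.L held without the first Ptf1a library only.

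Among called genes with a symbol, the smallest p-values apart from those of the injected genes were in post.L (chromosome 9_10L, 117435998 to 117437623) and post.S. The copy post.L had 47.7 and 92.2 CPM in the Ptf1a caps, against 3.31 and 1.75 CPM in the Neurog2 caps, 2.86 and 2.61 CPM in the mutant caps and 1.61 and 2.03 CPM in the CC caps. The copy post.S had 38.0 and 79.5 CPM, against 2.67 and 2.07 CPM. Both copies showed the same order, with the mutant, Neurog2 and CC caps close together and both Ptf1a libraries far above. The fold changes were 4.77 ± 0.374 and 4.63 ± 0.353, both with an adjusted p of 0.000128, and both calls held without each of the 4 libraries. Neither copy was called in the 8 libraries of 6 h without a block, or in the 4 libraries alone. With the replicate number as a block in the 8 libraries of 6 h, post.S was called and post.L was not.

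Several called genes code for small GTPases or their regulators. The ARF-like GTPase gene arl4a.S had 251 and 343 CPM in the Ptf1a caps, against 60.8 and 67.0 CPM in the Neurog2 caps (2.22 ± 0.262, adjusted p = 0.00601), and arl4a.L gave 1.33 ± 0.197. The endosomal GTPase gene rab15.L had 5.70 and 6.58 CPM, against 0.885 and 1.11 CPM (2.63 ± 0.234, adjusted p = 0.000366), and kept its call without each library. The dlc1.L gene, for a GTPase-activating protein, had 223 and 212 CPM, against 81.0 and 98.2 CPM (1.28 ± 0.181), while its CC level of 130 and 139 CPM lay between the groups. The exchange factor gene arhgef3.2.S was lower, with 2.07 and 2.75 CPM in the Ptf1a caps, against 6.61 and 7.30 CPM in the Neurog2 caps and 1.64 and 2.08 CPM in the CC caps (-1.53 ± 0.221, adjusted p = 0.0202). The calls of arl4a.L, dlc1.L and arhgef3.2.S were lost without any 1 of the 4 libraries, with an adjusted p of up to 0.408, 0.219 and 0.285, and that of arl4a.S held without the first Ptf1a library only, with up to 0.128 otherwise.

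Transporters, scaffolds and others made up the rest of the genes with a symbol. The monocarboxylate transporter family gene slc16a12.S gave 1.84 ± 0.231, the FERM domain scaffold copies frmd4b.S and frmd4b.L gave 1.75 ± 0.239 and 1.45 ± 0.201, and reep5.S, for a protein that shapes the endoplasmic reticulum, gave 1.72 ± 0.262. The homeodomain cofactor gene meis1.L was at 2.09 ± 0.349, fam101b.L, for a filamin-binding protein, at 3.08 ± 0.444, fam198b.L at 1.94 ± 0.326 and stmnd1.L at 2.16 ± 0.325. The amino acid transporter gene slc43a1.L gave 2.21 ± 0.308, but its record (chromosome 7L, 52478792 to 53028920) overlaps other gene records, and strand was not stated for the counting, so its reads are uncertain. The records of rab15.L, dlc1.L, meis1.L and frmd4b.L overlap others too. The calls of meis1.L and fam198b.L were lost without any 1 of the 4 libraries, with an adjusted p of up to 0.568 for both. Those of the others in this paragraph, rab15.L and dlc1.L aside, held without the first Ptf1a library only, with an adjusted p of up to 0.267 for slc16a12.S, 0.294 for frmd4b.S and slc43a1.L, 0.297 for frmd4b.L, 0.285 for fam101b.L, 0.352 for stmnd1.L and 0.40 for reep5.S. Another 7 called genes, all higher with Ptf1a, have no gene symbol.

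The largest negative difference was in hbg1.L, named for a haemoglobin subunit (chromosome 9_10L, 85943288 to 85948112). It had 0 and 0.016 CPM in the Ptf1a caps, against 6.21 and 7.25 CPM in the Neurog2 caps, and 0 in both CC libraries. These are 2 counts in the Ptf1a libraries and 716 in the Neurog2 libraries. The ratio of Neurog2 over Ptf1a is 1236 after scaling to library size with TMM factors, with an exact 95% interval of 341 to 10230. Like that of hes3.3.S, the interval takes counts as independent and may be too narrow. The adjusted p was 0.00601, and the call held without each library. It was the 1 called copy of 29 on the list of blood and endothelium genes (3.45%, against 0.138% of all genes tested). That list summed to 135 and 155 CPM in the Ptf1a caps, against 134 and 171 CPM in the Neurog2 caps, and gata1.L, the erythroid factor gene, averaged 0.0202 and 0.015 CPM. Of the 29 copies 7, hbg1.L among them, had both Ptf1a libraries below both Neurog2 libraries, and 3 had both above. Over all 30384 genes tested 1220 were below and 6306 above.

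Only 4 genes were called lower, so the rule for naming genes also gave 7 that did not pass. They were cxcr4.S, for a chemokine receptor (-1.04 ± 0.188, adjusted p = 0.0625), the protocadherin gene pcdh18.S (-1.64 ± 0.348), the AP-1 gene fosl2.S (-0.98 ± 0.211), efs.L (-0.95 ± 0.224), the galectin gene lgals4.S (-1.19 ± 0.282), bmp4.S (-0.90 ± 0.217) and the metabolic kinase gene pdk4.S (-0.98 ± 0.246). Their adjusted p-values ran up to 0.356. The receptor copy cxcr4.S had 15.5 and 18.9 CPM in the Ptf1a caps, against 33.6 and 37.4 CPM in the Neurog2 caps and 21.6 and 28.4 CPM in the CC caps. With the replicate number as a block over all 16 libraries cxcr4.S was called (adjusted p = 0.0313), and DESeq2 called it too. In the 8 libraries of 6 h without a block it was not.

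Of 59 epidermis copies 0 were called by edgeR, and their sum was 9175 and 8603 CPM in the Ptf1a caps, against 8843 and 6486 CPM in the Neurog2 caps and 6309 and 5343 CPM in the CC caps. Early ectoderm, multiciliated cell, ionocyte, endoderm, cell cycle, glucocorticoid response, AP-1 and stress, cytoskeleton and pan-neuronal lists also had 0 called copies by edgeR. DESeq2 called 1 glucocorticoid response copy higher and 2 lower, and jun.L and fosl2.S of the AP-1 and stress list. It also called muc1.L of the epidermis list higher and cxcr4.S of the cytoskeleton list lower. Without a filter on low counts edgeR called jun.L higher. The 15 lists without a call in the main fit held 678 copies, and their medians ran between -0.493 and 0.479. Across all genes the median log2 fold change was 0.12, with 73.2% of genes above 0, and it was -0.0159 with DESeq2 size factors, so fold changes near these values carry no direction. With those size factors 29 genes were higher and 4 lower.

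Called copies were compared with the other copy of the same gene, since L and S copies are separate records. Of the 42 called copies 30 had a measured other copy. These formed 23 pairs, of which 19, or 82.6%, had the same sign in both copies, where 69.8% of all 7993 measured pairs did, and in 7 pairs both copies were called. The 7 were prdm13, hes8, hes3.3, post, arl4a, frmd4b and fzd10. The S copies of snai2, twist1, stmnd1 and neurog2 had the other sign and were not called.

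**Figure D4:**
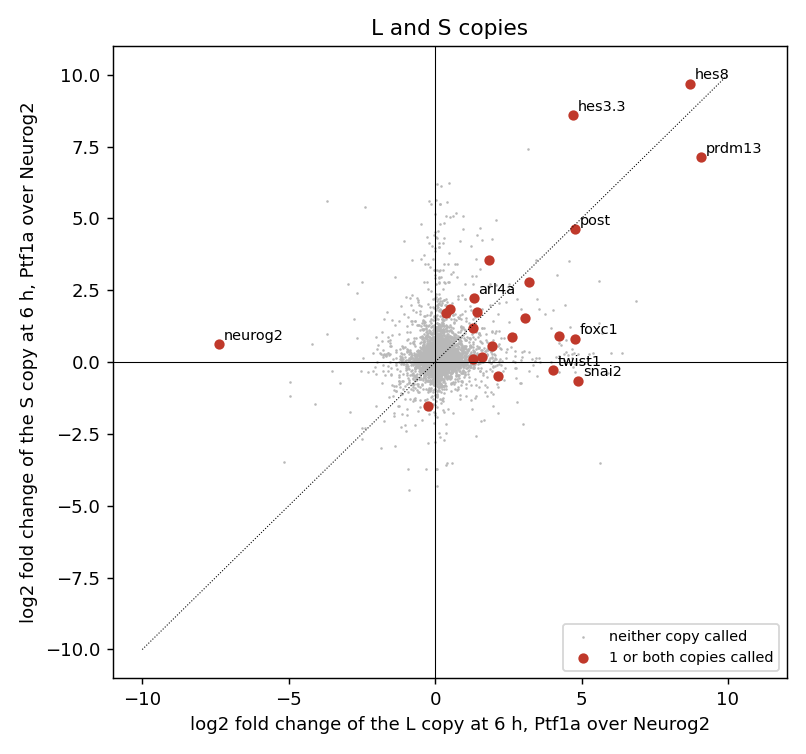
Log2 fold change of the S copy against that of the L copy for the 7993 pairs measured in both, Ptf1a over Neurog2 caps at 6 h, with pairs that hold a called copy in red. The pairs of hes8, prdm13, hes3.3 and post lie high on both axes, while snai2, twist1 and neurog2 depart from 0 in the L copy only.

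The caps of 25 h, which are other libraries, showed which early differences were there later. At that time 1559 genes were higher with Ptf1a (5.13%) and 1273 lower (4.19%), 9.32% in all. Of the 38 genes higher at 6 h, 8 were called higher and 3 lower at 25 h. The copy prdm13.S had 38.2 and 24.3 CPM in the Ptf1a caps of 25 h, against 0.339 and 0.405 CPM in the Neurog2 caps (6.39 ± 1.06, adjusted p = 0.00368), and prdm13.L gave 5.40 ± 1.11 (adjusted p = 0.0123). The other genes with a symbol that were higher at both times were ptf1a.L (3.66 ± 0.60), bmp3.L (4.58 ± 0.699), edn1.L (2.68 ± 0.532), foxc1.L (2.51 ± 0.589) and nrarp.S (1.48 ± 0.202). The locus Xelaev18007001m.g (2.78 ± 0.321) was the other one. The 3 called lower at 25 h were stmnd1.L, frmd4b.S (-0.81 ± 0.232, adjusted p = 0.0488) and a gene without a symbol.

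The genes that follow had a smaller or an opposite difference at 25 h. The post.L copy had 48.5 and 37.6 CPM in the Ptf1a caps of 25 h, against 80.5 and 66.2 CPM in the Neurog2 caps (-0.77 ± 0.318, adjusted p = 0.16). It stood at 91.8 and 77.2 CPM in the mutant caps and at 94.4 and 99.1 CPM in the CC caps of 25 h, so these and the Neurog2 caps of 25 h were all far above their levels of 6 h. The hes8.S copy had 1.75 and 0.943 CPM with Ptf1a, against 1.21 and 1.71 CPM with Neurog2, and hes3.3.S had 1.95 and 0.636 CPM, against 5.27 and 2.83 CPM. The snai2.L copy had 21.0 and 27.7 CPM, against 7.27 and 12 CPM (1.34 ± 0.419, adjusted p = 0.0671). The stathmin-domain gene stmnd1.L had 30.2 and 23.4 CPM with Ptf1a, against 140 and 103 CPM with Neurog2, and was called lower (-2.18 ± 0.291, adjusted p = 0.00126). Of the 4 genes lower at 6 h, hes2.L was called higher at 25 h (1.65 ± 0.40, adjusted p = 0.0238), arhgef3.2.S lower (-0.77 ± 0.214, adjusted p = 0.0429), and hbg1.L and neurog2.L gave -1.71 ± 0.761 and -0.94 ± 0.396, which were not called.

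The change of the difference between the times was tested as an interaction, in which 0.905% of genes were called higher at 25 h than at 6 h and 1.18% lower, 2.08% in all. Of the 38 genes higher at 6 h, the interaction was called negative for 24 and positive for 0, and of the 4 lower at 6 h it was called positive for 3. The values of 6 h that chose these genes enter the interaction, so nothing is read from these counts.

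**Figure D5:**
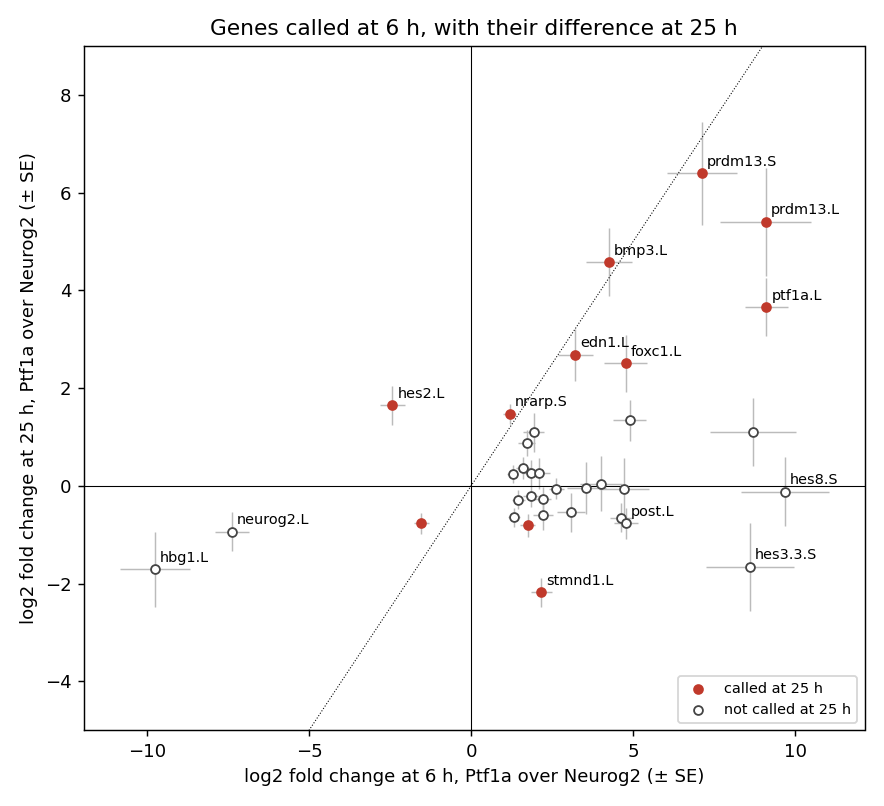
Log2 fold change of Ptf1a over Neurog2 caps at 25 h against that at 6 h, with SE, for the 35 genes with a symbol called at 6 h. Filled points were called at 25 h too; prdm13.S, bmp3.L and edn1.L lie near the dotted line of equal values, and post.L, hes8.S and hes3.3.S lie at or below 0 at 25 h.

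Some of these genes also set the Ptf1a caps apart from the mutant caps of 6 h. The tests against the mutant share the Ptf1a or the Neurog2 libraries with the main comparison, so their values are given side by side only. Ptf1a differed from the mutant in 10 genes (0.0329% of genes), among them snai2.L (5.99 ± 0.529), hes3.3.L (5.41 ± 0.79), post.L (4.68 ± 0.37), post.S (4.54 ± 0.35), rab15.L (2.32 ± 0.224) and arl4a.S (1.84 ± 0.258). The adjusted p-values of hes3.3.L and arl4a.S, 0.0497 and 0.0493, were close to the threshold. Neither copy of prdm13 was called between Ptf1a and the mutant in this test. The copy prdm13.S gave 5.57 ± 0.986 (adjusted p = 0.135) and prdm13.L gave 8.84 ± 1.33 (adjusted p = 0.0751). The mutant differed from Neurog2 in 4 genes (0.0132%), among them ptf1a.L (8.82 ± 0.667), neurog2.L (-8.75 ± 0.553) and hbg1.L, which had 2 counts in the mutant libraries against 716 in the Neurog2 libraries. In the plot of CPM by library the mutant libraries stood between the Ptf1a and the Neurog2 libraries for 20 of the 35 called genes with a symbol, bmp3.L, edn1.L and hes2.L among them. The copy amer1.L, another of them, had 309 and 306 CPM in the mutant caps. These placements describe 2 libraries a group and were not tested as such. The genes were chosen for a difference between Ptf1a and Neurog2, and the share of all genes placed so was not counted. Nothing is therefore read from the count of 20.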

How the data were processed

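RNA of animal caps was sequenced, and raw counts per gene, 1 table for each of 16 libraries, were deposited by the authors; the submitters' processing notes name CASAVA 1.8, STAR 2.5, featureCounts and DESeq2 1.8. Strand and the treatment of reads with several places are not given in the sources used here. Records of build 9.1, per the file headers, gave coordinates; 39 of the 42 called genes had 1 record. Each table lists 45038 genes. In R 4.3.3, edgeR 4.0.16 (TMM, filterByExpr by group, robust glmQLFit, 1 coefficient for each group) was run on the 16 libraries, 8 groups of 2 with 8 residual degrees of freedom; the common biological coefficient of variation was 0.378. Ptf1a and Neurog2 caps of 6 h were compared with a quasi-likelihood F-test, Benjamini-Hochberg adjusted over the 30384 genes tested. Fitted fold changes use a prior count of 0.125. The SE given with them is the absolute log2 fold change divided by the square root of the test's F. For genes at or near 0 counts in a group it therefore depends on the prior count. Genes at 0 counts got a floor of 3 counts, and intervals at 95% are exact and cover counting error only, since the reads carry no molecular identifiers. Floor and intervals take each count as independent. Many small counts are even numbers, so this may not hold, and the intervals may then be too narrow and the floor too low. Alternatives were other size factors and filters, DESeq2 1.42.0, fewer libraries, replicate blocks, thinning, summed copies and leaving out each library. Members and lists were chosen with earlier results of these data known. The rule named ptf1a, neurog2 and rbpj, and the 14 called genes with a symbol and the largest change in each direction, topped up to 10. These needed a mean log2 CPM above 0 and no overlap of libraries. It also named the 3 called genes with the smallest p in each direction, up to 3 called members of a list or its member with the most counts, and other copies. Genes said to be described after their values were seen, and the called genes amer1.L, bmp3.L, dlc1.L, fzd10, frmd4b, reep5.S and slc16a12.S, fall outside it. So do the list members foxd3.L, sox10.L, gata1.L, ckm.S, tnni2.S, msgn1.L and msgn1.S.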

Additional observations from a re-analysis of the deposited data

Results flagged for a closer look

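For 31 of the 129 genes named by the rule or picked later the log2 difference of Ptf1a over Neurog2 caps was itself different at 25 h and at 6 h, by the interaction term of edgeR's quasi-likelihood test with Benjamini-Hochberg adjustment over all genes. Values below are the log2 difference at 25 h minus that at 6 h; 2.08% of all genes were called. Of the 31, 23 were negative and 8 positive. Most were picked for their size at 6 h, which enters the value.

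Among genes called higher with Ptf1a at 6 h the value was -5.46 for ptf1a.L, -5.54 for post.L, -5.28 for post.S, -3.56 for snai2.L, -3.98 for twist1.L, -9.80 for hes8.S, -7.60 for hes8.L, -10.25 for hes3.3.S, -4.77 for hes3.3.L, -3.59 for fzd10.S, -3.62 for fam101b.L, -2.69 for rab15.L, -2.81 for slc43a1.L, -2.49 for arl4a.S, -1.97 for arl4a.L, -2.55 for frmd4b.S, -1.73 for frmd4b.L, -2.05 for slc16a12.S and -4.34 for stmnd1.L. Those of hes8 and hes3.3.S rest on 0 to 2 counts in the Neurog2 libraries of 6 h and are no bounds. Among genes called lower at 6 h it was 6.44 for neurog2.L, 4.07 for hes2.L and 8.05 for hbg1.L; with 2 counts in the Ptf1a libraries, that of hbg1.L is no bound either.

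The others were not called at 6 h. The value was 3.15 for pcdh18.S, 1.39 for efs.L, 3.24 for pcdh18.L, -3.44 for pou3f1.L, -2.55 for hes3.1.S, -6.40 for olig2.S, 4.88 for lhx1.S, 6.19 for lhx1.L and -8.94 for tlx3.S. The homeobox gene tlx3.S, which specifies excitatory neurons in mouse spinal cord, had 0.584 and 0.351 CPM in the Ptf1a caps of 25 h, against 23.8 and 89.4 CPM in the Neurog2 caps. At 6 h it had 1.74 and 3.61 CPM with Ptf1a, against 0.780 and 0.528 CPM with Neurog2. The copy lhx1.L had 4.39 and 4.85 CPM in the Ptf1a caps of 25 h, against 0.075 and 0.095 CPM in the Neurog2 caps. At 6 h it had 1.54 and 1.97 CPM with Ptf1a, against 2.19 and 2.59 CPM with Neurog2.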

How the results depend on the processing

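Over the 16 alternatives none of the 42 called genes changed sign in the comparison at 6 h, and 1, neurog2.L, was called in each of them. Genes higher and lower with Ptf1a at 6 h numbered 61 and 4 without a filter on low counts, 121 and 26 with DESeq2, 3 and 1 in the 8 libraries of 6 h, and 0 and 1 in the 4 libraries compared (585 genes with an unadjusted p below 0.05). With the replicate number as a block they numbered 70 and 6, with a block within each time 154 and 20, and with a block in the 8 libraries of 6 h 188 and 68. Leaving out 1 library gave 7 to 37 higher and 2 lower. With the block over all 16 libraries, 5 genes named by the rule or picked later that missed the threshold without it were called: pou3f1.L (adjusted p = 0.0306), six3.L (0.0221), cxcr4.S (0.0313), id2.S (0.0381) and hes4.S (0.0332). The 42 genes all stayed called under both blocks of 16 libraries, and 34 did in the 8 libraries. Deviations of libraries with the same number correlated across genes at 0.617 to 0.697 between the groups of 6 h, but the labels do not say what a number marks and there are 2 numbers only. For the interaction, genes higher and lower at 25 h than at 6 h numbered 275 and 358, against 988 and 954 with DESeq2, 574 and 810 with the block and 1264 and 2002 with the block within each time, and leaving out 1 library of 6 h gave 67 to 131 higher and 76 to 154 lower. With DESeq2 size factors 51.3% of those called were higher, against 43.4%; the other counts of calls stayed within 1.5 times. Summing L and S counts turned the sign of 4 S copies into a called value, since the sum is mostly the L copy: neurog2.S gave -6.43, snai2.S 4.44, twist1.S 3.55 and stmnd1.S 1.795. In the interaction snai2.S gave -3.60. Another 18 values of the 2 comparisons changed sign with no call in either fit. Depth limits the genes near 0 in Neurog2 caps: 3 counts are 0.045 and 0.072 CPM in the Neurog2 libraries, against 0.0119 and 0.0244 CPM in the Ptf1a libraries.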
